A study of Bos taurus with 40 samples.

Results

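RNA of liver biopsies was compared between purebred Simmental bulls and heifers, using 17 of the 40 samples of a series on residual feed intake (RFI). RFI is the part of feed intake that body weight, growth and back fat do not account for, so high RFI animals are inefficient and low RFI animals are efficient. The comparison holds 10 bull liver samples (5 high and 5 low RFI) and 7 heifer liver samples (4 high and 3 low RFI), each from 1 animal by its tag. Heifers 2728 (high RFI), L58 and L16 (both low RFI) were left out, chosen by a muscle profile in their measured expression values. The level of 27 genes that are high in muscle describes that profile here. The choice was made with earlier results of these data known.

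The calves were born after transfer of embryos from dams and sires that both stood at the same end of RFI, and no sire served both ends. Bulls and heifers were reared on the same regime, put in pens at about 15 months of age and given concentrate without limit and a little grass silage. After 14 days of adaptation their intake was recorded, and the biopsies were taken once that recording had ended. RFI was ranked within each sex, so high and low do not mark the same intake in bulls and heifers. All animals were entire males or young females of 1 herd, and no sample was treated. The sources used here name no sequencing batch, and bull liver and heifer liver have separate lists of genes in the deposited files. A difference between the sexes and a difference between these sets of files therefore cannot be told apart.

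The liver is among the organs whose gene expression differs most between the sexes in mammals. Work in rodents ties much of that difference to the pattern of growth hormone release and to sex steroids, and the enzymes that clear steroids, drugs and bile acids are its best known targets. The liver also makes most plasma proteins, which are folded in the endoplasmic reticulum (ER) and given sugar chains there. ER chaperones and the enzymes that supply activated sugars serve that export of protein.

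The deposited values are CPM, the reads on a gene as a proportion of all those counted on genes in its sample. The depth recovered from them was 2368340 to 23288228 reads in the bulls and 8433913 to 35691049 reads in the heifers, with medians of 16880378 and 15749833 reads. Bull 2713 had the lowest depth. The muscle profile made up at most 0.383% of any of the 17 samples, whereas the nearest of the 3 samples left out held 46.3%. Markers of liver cell types were not analysed here, because the files give identifiers without names. Whether a gene was lower because fewer cells expressed it or because each cell held less of its RNA cannot be told apart in such samples.

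Samples of one sex were only slightly more alike than samples of both. Across genes, the median Pearson r of log2 values was 0.968 between bulls, 0.966 between heifers and 0.960 between a bull and a heifer. On the first principal component (22.5% of the variance), the bulls scored −21.7 to 3.31 and the heifers −4.70 to 34.9, so the sexes overlapped. Heifer 2632 alone made the upper end, and the next heifer, 2670, was at 16.3. On the second (15%), the bulls scored −14.8 to 5.96 and the heifers −6.20 to 16.9.

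High RFI bull 68 stood apart from the other bulls. For each animal, the genes that differ between the sexes were called without it, and the animal was then placed on one or the other side of the midpoint between the sex means of the remaining animals. Bull 68 fell on the heifer side for 260 of 385 genes (67.5%). The other 9 bulls fell there for 8.59 to 38.6% of the genes, and the 7 heifers fell on the bull side for 17.5 to 35.5%. Among the 50 genes with the smallest p-values, bull 68 was on the heifer side for 39, and no other animal was on the other side for more than 17. On the second principal component it had the highest score of the bulls. Its depth was 22314207 reads. Genes of the sex chromosomes are not named in the files, so its label was not checked here against them. It was kept as a bull. The counts of called genes and part of the values are given with and without it, and values not given without it may also have moved.

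**Figure D1:**
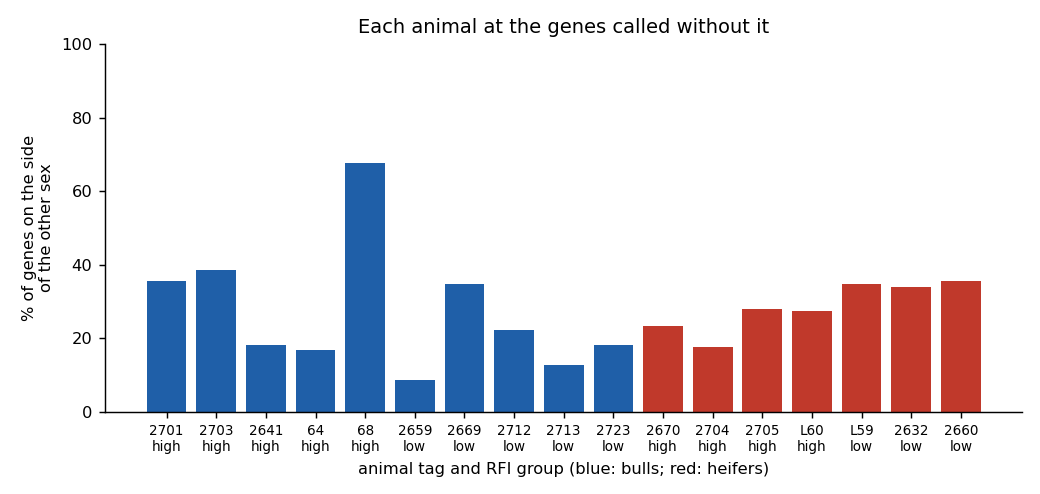
Share of genes, in percent, for which each of the 17 animals lay on the side of the other sex, at the genes called in a fit without that animal (197 to 385 genes per animal, adjusted p < 0.1). Bars are blue for bulls and red for heifers. Bull 68 is at 67.5% and all other animals are at 38.6% or below.

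Between bulls and heifers, 277 of 7045 genes listed in both sets of files were called (3.93%), 133 higher in bulls (1.89%) and 144 higher in heifers (2.04%). Log2 values of scaled CPM were tested with limma, with RFI group as a covariate and a Benjamini-Hochberg adjusted p < 0.1. Most differences were small, though genes listed for one sex only could not enter the test. The median size was 0.496 on the log2 scale, 142 of the 277 lay under 0.5, and the range was 0.257 to 3.46. At least a 2-fold difference was seen in 32 genes (0.454%), of which 13 were higher in bulls and 19 in heifers. Over all genes tested the median difference was 0.00505. With library size as the only scaling, 277 genes were also called, 247 of them shared, and 58.1% of them were higher in bulls in place of 48%. Without bull 68, 385 genes were called (201 higher in bulls and 184 in heifers), 266 of them shared with the 277, and 41 differed at least 2-fold.

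The called genes were not only rare transcripts. Their mean level was 42.8 CPM in the median gene, against 29.95 CPM over all genes tested, and 7 had a mean of at least 1000 CPM. Of these 7, 5 were higher in bulls. The 3 most abundant, with means over the 17 samples of 19040, 13400 and 12710 CPM, differed by nearly the same amount, 0.71, 0.72 and 0.72 on the log2 scale. With them, the 133 genes higher in bulls took up 6.85% of all CPM in bulls and 4.11% in heifers. The 144 genes higher in heifers took up 3.01% in heifers and 1.65% in bulls. Of the called genes, 42.2% were also listed in heifer skeletal muscle, against 63.3% of the genes tested.

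**Figure D2:**
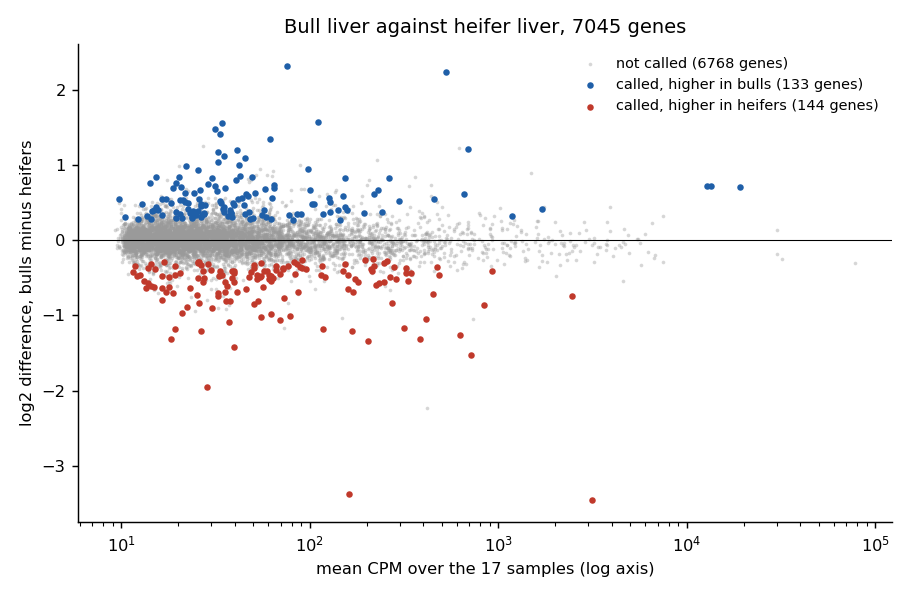
Log2 difference of bulls minus heifers for each of the 7045 genes, against the mean CPM over the 17 samples on a log axis. Grey points were not called, blue points (133) were called higher in bulls and red points (144) were called higher in heifers. Called genes are spread over much of the range of levels but do not reach its upper end. The 3 blue points furthest to the right have means of 12710 to 19040 CPM.

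In 19 genes (0.270%) the 10 bulls and 7 heifers did not overlap at all, with 5 higher in bulls and 14 in heifers. Of these, 18 were among the 277 called genes, and 7 differed at least 2-fold. Their differences ranged from 0.248 to 3.46 in size on the log2 scale. Without bull 68 the number was 54 (0.767%), with 30 higher in bulls and 24 in heifers. In the 35 genes that bull 68 alone made overlap, it had by definition to lie within the range of the heifers or beyond it. It lay within in 30 and beyond in 5. Leaving out one of the other animals gave 20 to 33 genes, with 30 without heifer 2670 and 33 without heifer L59 or 2632. The 4 genes described next are among the 19. Because they were picked for having no overlap, exact permutation p-values near the smallest possible were fixed by that choice. Those p-values are not adjusted for the number of genes and are no second line of support. They are known by identifier only, so what they encode is not given here.

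The gene with the smallest p-value was ENSBTAG00000021416, which was lower in every bull than in any heifer. The bulls had 40.5 to 56 CPM with a median of 49.3, and the heifers had 86.1 to 114 CPM with a median of 105. The groups were narrow and far apart, with means of 48.04 ± 5.89 CPM (SD, n = 10) and 100.1 ± 10.9 CPM (SD, n = 7). The log2 difference was −1.07 (SE 0.0825, limma adjusted p = 6.49e-07), which is 2.1-fold. In the exact permutation test, with sex permuted within RFI group, p was 0.000142, the smallest that 7056 assignments allow. The difference had the same size in both RFI groups, −1.06 in high and −1.07 in low RFI. Bull 68 was at 54.6 CPM, with the other bulls, and without it the difference was again −1.07.

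The largest difference was in ENSBTAG00000018365, again lower in bulls. The heifers lay close together at 4926 to 7169 CPM, with a median of 6082. The bulls were spread over a wide range, from 56.5 to 4695 CPM with a median of 779. Bull 68 was the bull at 4695 CPM, just below the lowest heifer, and the next bull was 2703 (high RFI) at 1679 CPM. The log2 difference was −3.46 (SE 0.628, limma adjusted p = 0.00875, exact permutation test p = 0.000283), which is 11-fold. It was −3.48 within high RFI and −3.43 within low RFI. Without bull 68 it was −3.84 (SE 0.534, limma adjusted p = 0.000539).

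Of the genes higher in bulls, ENSBTAG00000019887 had the largest difference among those without overlap. It was at 20.4 to 74.4 CPM in bulls, with a median of 50.8, and at 9.57 to 19.2 CPM in heifers, with a median of 15.1. The lowest bull, 2669, was just above the highest heifer, 2670. The log2 difference was 1.40 (SE 0.231, limma adjusted p = 0.0072, exact permutation test p = 0.000425). Bull 68, at 52.8 CPM, was above the median of the bulls. Second was ENSBTAG00000004799, with 22.9 to 84.9 CPM in bulls (median 42) and 10.7 to 21.1 CPM in heifers (median 17.4). Its log2 difference was 1.17 (SE 0.213, limma adjusted p = 0.00875, exact permutation test p = 0.000283). Without bull 68 the differences of these 2 genes were 1.38 and 1.22. All 4 genes were called whichever of the 17 animals was left out. At 13 other settings of the processing, ENSBTAG00000004799 was called in all, and each of the others was called in 12.

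**Figure D3:**
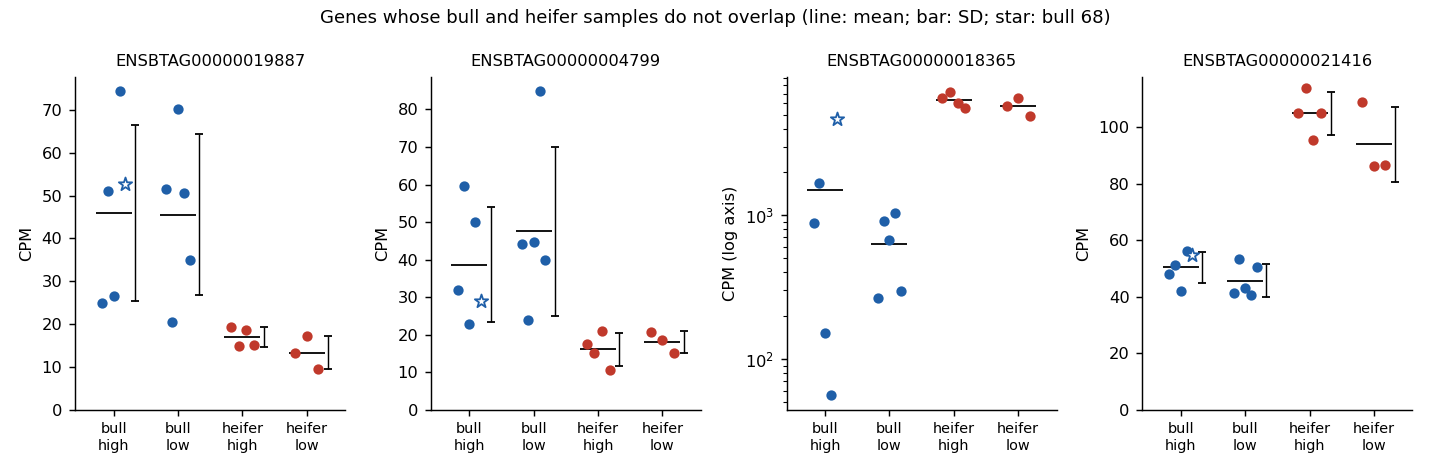
CPM of 4 genes in each sample, by sex and RFI group (5, 5, 4 and 3 animals), with blue points for bulls, red points for heifers, a star for bull 68, lines for the means and bars for the SD. The axis is linear from 0 for 3 genes and logarithmic for ENSBTAG00000018365, where no SD is drawn and bull 68 (4695 CPM) lies next to the heifers. In all 4 genes every bull lies on one side of every heifer.

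Names were at hand for 16 of the 7045 genes, all of them genes with a reported link to RFI in this herd. Of the 11 linked to it in the liver of these bulls, 4 were called between the sexes, CRELD2 and GMPPB higher in bulls and LIMS2 and DBP higher in heifers, where 3.93% of all genes tested were called. The study chose these 11 genes for a difference between the same low and high RFI bulls, so they are no independent evidence on how the sexes differ, nor on how that difference changes with RFI, since both low RFI and high RFI bulls enter it. Their median log2 difference was 0.48. Within high RFI 0 of the 11 were called, where 0.0142% of all genes tested were, so no list of this size could be expected to hold a call. Within low RFI 8 were called, against 2.23% of all genes tested, and these are the bulls in which the genes were picked as higher or lower.

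Of the 11, 5 act in the ER. HSPA5 is the main chaperone of the ER lumen, HYOU1 exchanges its nucleotide, and DNAJB11 is a co-chaperone that hands it unfolded proteins. MANF and CRELD2 are small proteins of the ER that rise when unfolded protein accumulates. Over both RFI groups, CRELD2 alone was called, at 13.3 to 51.7 CPM in bulls (median 19) and 8.06 to 17.1 CPM in heifers (median 12.9). Its log2 difference was 0.75 (SE 0.219, limma adjusted p = 0.0864, exact permutation test p = 0.00737). The call was close to the threshold and held in 6 of 17 fits with 1 animal left out, those without bull 2703, 2641, 68 or 2713 or heifer 2670 or L60. The other 4 had log2 differences of 0.84 (HSPA5), 0.86 (HYOU1), 0.77 (MANF) and 0.48 (DNAJB11), with limma adjusted p from 0.126 to 0.257. HYOU1 was called without bull 68 (adjusted p = 0.099), bull 2713 or heifer L60, and MANF without bull 68 (adjusted p = 0.0963) or heifer 2670.

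By group mean, all 5 ER genes were highest in the low RFI bulls, though low RFI bull 2713 lay among the other groups in each. In HSPA5, the high RFI bulls had 192, 243, 249, 277 and 363 CPM, and the high RFI heifers had 192, 229, 311 and 326 CPM. The low RFI bulls had 298, 537, 680, 749 and 1031 CPM, and the low RFI heifers had 145, 154 and 191 CPM. Bulls and heifers of high RFI covered nearly the same range, whereas every low RFI bull was above every low RFI heifer. The low RFI bull nearest to the heifers was 2713, the library of the lowest depth, with 706 reads on HSPA5.

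Within low RFI all 5 were called higher in bulls, where 2.23% of all genes tested were called in either direction. The study picked these genes as higher in the same low RFI bulls, so these calls and their p-values are no independent evidence. The log2 differences of limma were 1.85 (SE 0.302, adjusted p = 0.0109) for HSPA5 and 1.76 (SE 0.314, adjusted p = 0.0165) for HYOU1. They were 1.55 (adjusted p = 0.0275) for MANF, 1.17 (adjusted p = 0.0756) for CRELD2 and 1.03 (adjusted p = 0.0604) for DNAJB11. Within high RFI the same differences were −0.01, 0.10, 0.11, 0.40 and 0.01, none of them called. Without bull 68 they were 0.03 (HSPA5), 0.13 (HYOU1), 0.19 (MANF), 0.39 (CRELD2) and 0.07 (DNAJB11). The change from high to low RFI in the sex difference was 1.87 for HSPA5 (SE 0.41, limma adjusted p = 0.909), and it was called for none of the 5. As that change holds the contrast of low and high RFI bulls for which the genes were picked, its size is given as a description.

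A like pattern was seen in GMPPB, which makes GDP-mannose, a sugar donor for the chains attached to proteins in the ER. The low RFI bulls had 24.9, 29.8, 29.8, 31.6 and 37.1 CPM and the low RFI heifers 8.66, 12.3 and 13.3 CPM. In high RFI, the bulls had 16.6, 17.3, 20.3, 24.3 and 25.5 CPM and the heifers 17.9, 19.3, 20.3 and 20.5 CPM. The groups were thus far apart in low RFI and overlapped in high RFI. The log2 difference was 1.31 within low RFI (SE 0.165, limma adjusted p = 0.000732) and 0.05 within high RFI (adjusted p = 0.992). Without bull 68 the latter was 0.01. Their difference, 1.26 (SE 0.225), had the smallest adjusted p of that test over all genes, 0.191, and was not called, and GMPPB too was picked for its difference between these bulls. Low RFI bulls were above high RFI bulls by 0.59, and low RFI heifers were below high RFI heifers by 0.66 on the log2 scale. Over both RFI groups GMPPB was called at 0.63 (SE 0.181, limma adjusted p = 0.0843, exact permutation test p = 0.00624), in 8 of 17 fits with 1 animal left out, each of them without a high RFI animal. GNPNAT1, an enzyme on the way to UDP-N-acetylglucosamine, had a difference of 0.01 (SE 0.122, adjusted p = 0.991), with bulls at 11.2 to 25.4 CPM and heifers at 11.9 to 21.1 CPM.

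LIMS2, an adaptor protein of the sites where cells hold to the matrix, was higher in heifers. The bulls had 43.6 to 107 CPM (median 61.9) and the heifers 76.8 to 141 CPM (median 112). Of the 10 bulls, 6 lay below every heifer, among them all 5 of low RFI. The log2 difference was −0.69 (SE 0.159, limma adjusted p = 0.029, exact permutation test p = 0.000992), and the call held in all 17 fits with 1 animal left out. It was lost with 4-digit tags only (−0.66, adjusted p = 0.12) and with all 10 heifers (−0.49, adjusted p = 0.311). The difference was −1.15 within low RFI (adjusted p = 0.0119) and −0.31 within high RFI (adjusted p = 0.801, and −0.33 without bull 68), and the difference of the 2 was −0.84 (adjusted p = 0.959).

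DBP, a transcription factor that the circadian clock drives, was also higher in heifers. It was at 17.7 to 90.9 CPM in bulls (median 31.3) and 49.2 to 112 CPM in heifers (median 62.7), and 8 of 10 bulls lay below every heifer. High RFI bulls 2703 (90.9 CPM) and 68 (63.4 CPM) were the other two. The log2 difference was −0.85 (SE 0.248, limma adjusted p = 0.0855, exact permutation test p = 0.00624). The call held in 4 of 17 fits with 1 animal left out, those without bull 2703 or 68 or heifer 2704 or L60. Within low RFI the difference was −1.52 (adjusted p = 0.0298), and without bull 68 the difference over both groups was −0.92 (adjusted p = 0.0548).

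**Figure D4:**
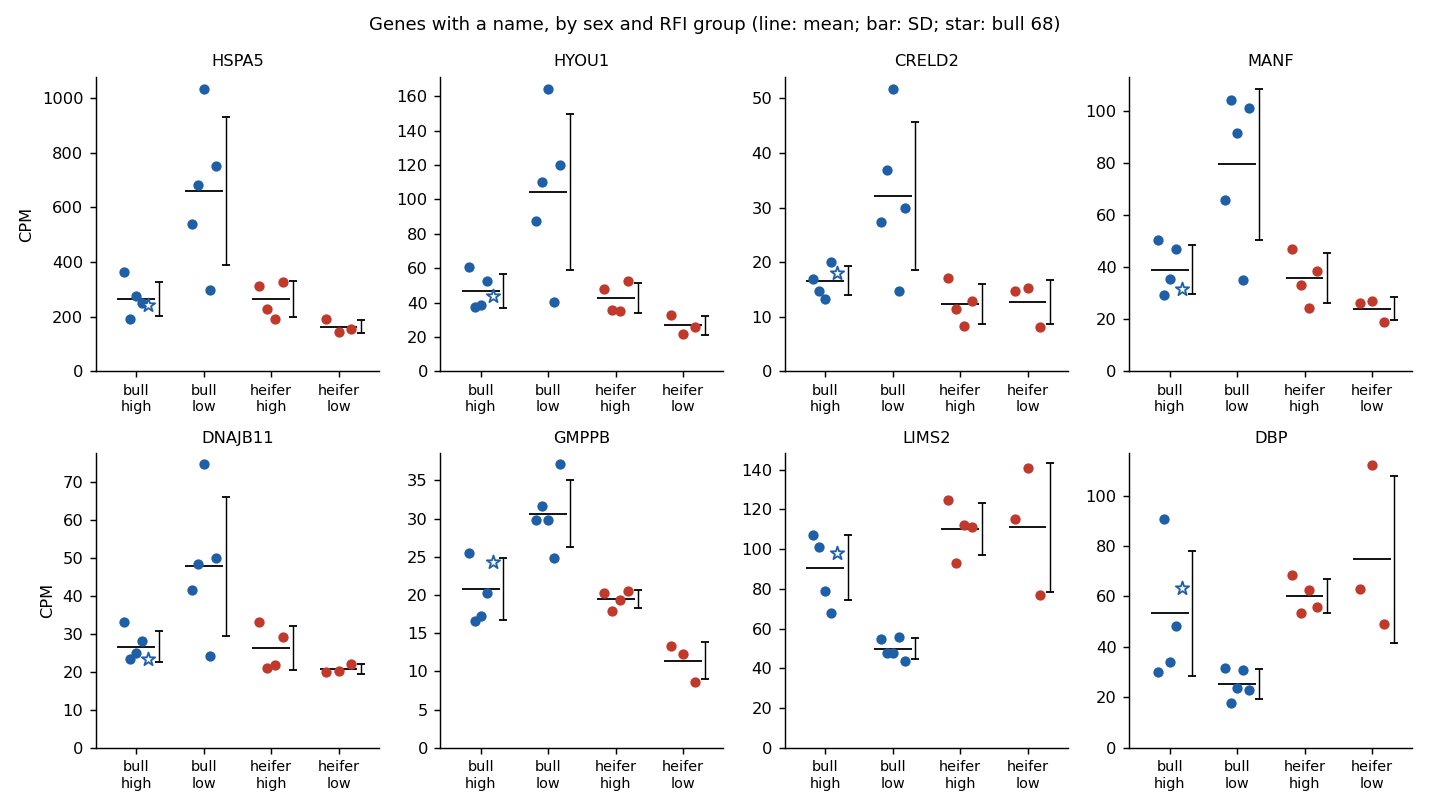
CPM of 8 named genes in each sample, by sex and RFI group (5, 5, 4 and 3 animals), on linear axes from 0. Blue points are bulls, red points are heifers, a star is bull 68, lines are means and bars are the SD. In the 5 ER genes and GMPPB the low RFI bulls have the highest mean, with bull 2713 among the other groups. The low RFI heifers have the lowest mean in all of these but CRELD2. In HSPA5 these 2 groups are at 298 to 1031 CPM and 145 to 191 CPM. LIMS2 and DBP have their lowest mean in low RFI bulls.

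The other named genes were not called in any of these comparisons. GSTT1, a glutathione transferase, was at 6.33 to 23.4 CPM in bulls and 7.46 to 39.8 CPM in heifers, a log2 difference of −0.46 (SE 0.26, limma adjusted p = 0.439). ACTA2, the smooth muscle actin of vessel walls and activated stellate cells, was at 26.2 to 113 CPM in bulls and 17.2 to 49.5 CPM in heifers, a difference of 0.28 (SE 0.231, adjusted p = 0.635). The 5 genes of the mitochondrial genome encode subunits of the respiratory chain, ND5 and ND6 of complex I, cytb of complex III and COX1 and COX3 of complex IV. They had log2 differences of −0.06 (ND5), −0.21 (ND6), −0.19 (cytb), −0.26 (COX1) and −0.24 (COX3), with SE of 0.128 to 0.191 and adjusted p from 0.414 to 0.934. COX1 was at 22096 to 46793 CPM in bulls and 25651 to 40816 CPM in heifers, so the sexes overlapped over most of their range.

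Between bulls and heifers of high RFI (5 against 4), 1 gene of 7045 was called (0.0142%), the gene ENSBTAG00000021416 described above. An unadjusted p under 0.05 was seen in 478 genes, where a share of 0.05 would be expected if nothing differed. Between those of low RFI (5 against 3), 157 were called (2.23%), with 101 higher in bulls and 56 in heifers, and 103 of them were among the 277. Without bull 68 the counts were 35 in high RFI and 165 in low RFI. In high RFI the count was also 2 without bull 2659 and 3 without heifer 2704 or L60. The count in low RFI hung on single animals too. It was 71, 67 and 58 without bulls 2659, 2712 and 2723, 36 without heifer 2632, and 429 without heifer 2660. With sample weights estimated by limma, 47 genes were called in high RFI and 7 in low RFI, so the order of the 2 counts turned round.

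The test of a sex difference that differs between RFI groups called 0 of 7045 genes with limma (0%), with 256 at an unadjusted p under 0.05 and a smallest adjusted p of 0.191. The share expected if nothing differed is again 0.05. This test called 1 gene without bull 2701 or heifer L59 and 4 without bull 2713. So the larger count in low RFI does not show that sex differences were larger there. The spread between animals was wider in low RFI, with a median SD over genes of 0.226 in bulls and 0.287 in heifers on the log2 scale, against 0.171 and 0.178 in high RFI.

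The 2 RFI groups hold different animals, so each can be set beside the other. Of the 127 genes with an unadjusted p under 0.01 in high RFI, 117 (92.1%) had the same direction in low RFI. Of the 360 genes with p under 0.01 in low RFI, 316 (87.8%) had the same direction in high RFI. Over all genes tested the share was 60.1%. Genes are not independent of each other, and these shares are given as a description. Pearson's r between the 2 differences was 0.464 across genes, and Spearman's rho was 0.324. Without bull 68, Pearson's r was 0.492.

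**Figure D5:**
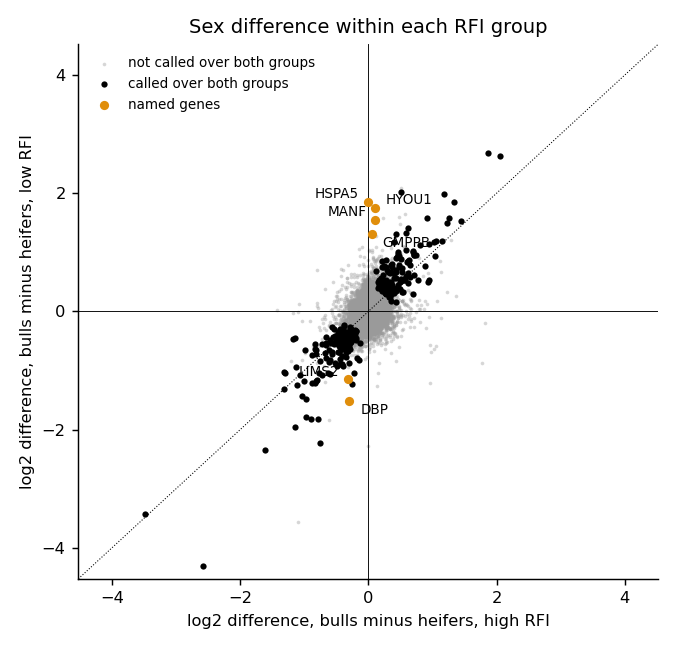
Log2 difference of bulls minus heifers within low RFI against the same within high RFI, for 7045 genes. Black points are the 277 genes called over both groups, orange points are 6 named genes (GMPPB, LIMS2 and DBP among them were also called), and the dotted line marks equal differences. HSPA5, HYOU1, MANF and GMPPB lie near 0 in high RFI and between 1.31 and 1.85 in low RFI.

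Besides the shared genes, 318 were listed for bull liver alone and 186 for heifer liver alone. A listed gene reached 10 CPM in at least 5 of the 10 samples of its set, with no exception in either set, so a gene near that level can be listed in one set by a small margin. This was so for most of the 318. Their median gene had a mean of 10.92 CPM, 167 reached 10 CPM in exactly 5 or 6 bulls, and 8 had a mean of at least 20 CPM. The heifer level of these genes is not given in the files used here, so no fold was computed.

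The most abundant gene listed for bulls alone, by identifier only, had a mean of 154.2 ± 72.98 CPM (SD, n = 10). In 9 bulls it was at 63.75 to 240.5 CPM. Bull 68 had 7.305 CPM from 163 reads, far below the rest. In the second most abundant, bulls 2669 (2.393 CPM) and 2701 (3.303 CPM) were below bull 68 (8.335 CPM). Bull 68 was the lowest bull in 3 of the 8 genes with a mean of at least 20 CPM. Of all 318 genes it was the lowest in 32, about an even share among 10 bulls.

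The list of genes for heifer liver was set with all 10 heifers, including the 3 with a muscle profile. Of the 186 genes listed for heifers alone, 121 were also listed in heifer muscle. In the 7 heifers kept, 65 of the 186 reached 10 CPM in at least 5 animals and 121 in fewer. In 19 genes, all listed in heifer muscle, the mean of the 3 samples left out was over 10 times that of the 7 kept, with medians of 4908 and 11.11 CPM. The most abundant of the 186 in the 7 heifers was at 5.348 to 94.65 CPM, with a mean of 41.04 ± 28.96 CPM (SD, n = 7). In the 7 heifers kept, all 186 thus had lower means than the top gene listed for bulls alone.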

How the data were processed

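RNA of liver biopsies had been sequenced as single reads from mRNA libraries. Per the labels and the methods, the authors aligned reads to UMD3.1 with STAR 2.5.1, used HTSeq 0.6.1p2 for the counts on protein-coding genes and tested counts with edgeR 3.5. The unit deposited by the authors is CPM, reads on a gene over all reads counted in the sample. How the listed genes were chosen is not given in the sources used here. Every value was a whole multiple of the worth of 1 read, which gave the depth.

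Scaling used TMM factors (trimmed M values, with 30% and 5% trimmed), 1 CPM was added, and the log2 values entered limma 3.58.1 under R 4.3.3 (trended variance, Benjamini-Hochberg adjusted p < 0.1). Adding 1 CPM understates differences of low genes. Genes needed more than 1 CPM in at least 7 samples, which removed 0 of 7045. Sex was tested with RFI group as covariate, and within RFI groups over 4 group means. Exact permutation tests were two-sided over all 7056 assignments of sex within RFI group. Python 3.11.15 (pandas 2.3.3, numpy 2.4.6, scipy 1.17.1, matplotlib 3.10.9) gave the other values and the plots. In data simulated for this comparison over 7045 genes, 67% of 200 genes changed by 0.5 on the log2 scale were recovered, 96% of those changed by 1, and 99.5% of those changed by 2 (7.25 to 11.8% false calls), with 0 calls where nothing changed.

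The muscle profile was estimated from 27 genes whose mean was more than 32-fold higher in heifer muscle than in bull liver. No pair of the 17 samples agreed within sampling noise (136 pairs, smallest chi-square per gene 13.8). Replicates are animals with separate tags, and replicate numbers follow the order of deposit and pair nothing. Depth limits only counting error. The rule for named genes took, in each direction, the largest called differences without overlap, every gene of the study's lists, and members of fixed gene lists. The 33 lists held 611 symbols, of which the files could be matched to those of 7 lists through the 16 names given in the study's tables, and the others were not analysed here. At most 2 identifiers per direction are printed, and ENSBTAG00000021416 was picked from those of the rule after its values were seen. The samples, members and lists were chosen with earlier results of these data known. Bull muscle was not used here.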

Additional observations from a re-analysis of the deposited data

Results flagged for a closer look

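One value stood far from the rest of its group. DBP, the clock-driven transcription factor, was at 112.5 CPM in low RFI heifer 2632, while the other 6 heifers lay at 49.19 to 68.62 CPM. Its gap to the nearest heifer was 0.645 of the whole range, above Dixon's limit for 7 samples. In all, 40 groups of values were looked at (20 genes in bulls and in heifers), and chance marks about 1 in 20 such groups. Without this heifer the log2 difference of DBP between bulls and heifers was −0.62 (limma adjusted p = 0.161).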

How the results depend on the processing

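The number of called genes stayed within 1.5 times of 277 under both other scalings, both other pseudocounts, both other filters, all 3 changes of covariates, sample weights and each animal left out (197 without bull 64 to 385 without bull 68). It was 166 at an adjusted p < 0.05 and 182 with 4-digit tags only. With all 10 heifers, including the 3 with a muscle profile, it was 17, with 7 at least 2-fold, 0 within high RFI and 49 within low RFI. At an adjusted p < 0.05, 55 genes were called within low RFI. With sample weights 47 were called within high RFI and 7 within low RFI, so which RFI group held more calls turned with the weights. With 1 animal left out the counts were 1 to 35 within high RFI, 36 to 429 within low RFI, 0 to 4 for sex by RFI and, for at least 2-fold, 26 to 41. Of the 277 genes, 152 were called whichever animal was left out, 113 of them also at every setting but all 10 heifers, and 16 at every setting. Among single genes, all 10 heifers turned GSTT1 to 0.195 and ACTA2 to −0.139, 4-digit tags turned ND5 to 0.207, and sample weights turned GNPNAT1 to −0.0963. Leaving out 1 animal moved ND5 over −0.192 to 0.0329 and GNPNAT1 over −0.0687 to 0.086. None of these genes was called, and the cause was not tested. The count tests of edgeR and DESeq2 were planned but not run. Reads were recovered from the CPM for depth, and every value was a whole multiple of 1 read, though the listed genes hold few low counts in most liver files. As no count test was run, what it would call is not known. No paired analysis was possible because the labels give no replicate numbers that bulls and heifers share. Files of both sexes hold only genes near or over 10 CPM, so lower genes could not be compared.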
